A study of Mus musculus with 6 samples.

Results

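The immediate early response genes described here were *Fos*, *Fosb*, *Jun*, *Junb*, *Egr1*, *Egr2*, *Ier2*, *Atf3*, *Dusp1* and *Myc*, 10 of the 20284 genes that could be named on the arrays. They were chosen by name, as genes of the rapid transcriptional response, and all 10 were found, each with 1 probe. Their levels were read from single-colour Agilent microarrays of the liver, the ovary and the uterus of immature female CD-1 mice, aged 24 days by the labels. The treated mice had received fluorene-9-bisphenol (BHPF), a bisphenol used in plastics sold as free of bisphenol A, by oral gavage at 50 mg per kg body weight per day for 3 days, and the control mice had received its vehicle, peanut oil. The mice carried no transgene or engineered allele. Each of the 6 groups (3 tissues, control or BHPF) had 1 array, hybridized with RNA pooled from 3 mice, so the spread between animals was not measured and a difference between the 2 arrays of a tissue has no test. The question that the members address is whether genes which oestrogens and the handling of tissue can both induce differed between the treated and the control pools, in which tissue and in what direction.

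Immediate early genes are transcribed within minutes of a stimulus without new protein synthesis, from transcription factors that already sit on their promoters, and their mRNAs are short-lived. *Fos* and *Fosb* encode proteins that pair with *Jun* or *Junb* to form the activator AP-1, *Egr1* and *Egr2* encode zinc-finger factors of the early growth response family, *Atf3* encodes a stress-induced factor that can pair with JUN, and *Myc* encodes a growth-promoting factor that pairs with MAX. *Dusp1* encodes a phosphatase that inactivates MAP kinases and so limits the response, and *Ier2* encodes a small nuclear protein. In the uterus oestrogen is known for inducing *Fos* and *Myc*, and in the liver partial removal of the organ and acute stress are known for inducing *Fos*, *Jun*, *Egr1* and *Atf3*.

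A level is given throughout as the log2 intensity of the probe minus the 75th percentile of its array, so that 0 is the 75th percentile and 1 unit is a 2-fold step, and levels are compared only within a probe. Noise between spots of the same probe on 1 array had an SD of 0.10 to 0.12 (log2), and the SD that this noise gives a difference between 2 arrays was 0.15 to 0.16 for the 8 members with 1 spot, 0.11 for *Myc* with 2 spots, and 0.06 for *Fos* with 10 spots. This SD covers neither the labelling of the RNA nor the animals. The control arrays lay at positions 1, 2 and 3 of 1 slide and the BHPF arrays at positions 5, 6 and 7, which leaves treatment and place on the slide not to be told apart. The mice were killed by cervical dislocation, and the interval between death and the freezing of each tissue is not given in the sources used here.

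The labels of the uterus arrays were not settled by the files. In the deposited table of processed values the column headed control uterus held the scanner values of the array labelled BHPF uterus, and the reverse (100% of probes within 0.001 log2 after removal of a constant), whereas the columns of the other tissues matched their own arrays. The scanner files are used here under their own labels, and every uterus difference changes sign if the headings of the table are the correct ones. The tissue markers matched the labelled tissues. The 7 oocyte genes, with *Nlrp5*, *Gdf9* and *Zp3* the brightest, had a summed level of 29.7 and 30.2 in the ovary against 0.127 to 0.691 elsewhere (a sum of linear levels, in units of the 75th percentile of the array). The 8 uterine genes had 18.3 and 19.3 in the uterus against at most 2.70 elsewhere, and the 12 hepatocyte genes had 434 and 409 in the liver. The hepatocyte genes were also higher on the array labelled BHPF uterus, at a summed level of 38.4 against 2.72 on the control uterus array.

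The promoters of 7 members were in the RefSeq promoter table (GRCm38.p6). Those of 4 are shown as examples, with motif matches in the 250 bases before the transcription start. The cyclic AMP response element (CRE) binds the CREB and ATF factors, and its core TGACGT, in either strand, stood in the promoters of *Fos*, *Egr2*, *Atf3* and *Dusp1*. The 7 members have 11 windows in the table, 1 each except for *Egr2* with 5, which overlap in part. The core was in 6 of the 11, against 6.469% of the 32851 promoter windows of the table. Of the 6, 3 were overlapping windows of *Egr2* that held the same site. Capitals mark the CRE core or the full CRE, the TATA element TATAAA in *Fos* and the AP-1-like site TGACATCA in *Jun*.
Fos, chr12:85473640-85473889, plus strand: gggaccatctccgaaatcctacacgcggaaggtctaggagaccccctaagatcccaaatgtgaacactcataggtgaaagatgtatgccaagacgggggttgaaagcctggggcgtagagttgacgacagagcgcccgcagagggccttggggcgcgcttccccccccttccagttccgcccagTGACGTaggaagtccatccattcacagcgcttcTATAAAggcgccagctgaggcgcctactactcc
Jun, chr4:95052223-95052472, minus strand: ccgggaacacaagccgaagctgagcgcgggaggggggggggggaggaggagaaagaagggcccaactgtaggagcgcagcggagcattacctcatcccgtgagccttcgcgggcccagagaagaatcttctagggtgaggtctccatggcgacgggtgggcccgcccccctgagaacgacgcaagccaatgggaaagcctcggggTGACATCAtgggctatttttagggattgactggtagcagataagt
Dusp1, chr17:26508473-26508722, minus strand: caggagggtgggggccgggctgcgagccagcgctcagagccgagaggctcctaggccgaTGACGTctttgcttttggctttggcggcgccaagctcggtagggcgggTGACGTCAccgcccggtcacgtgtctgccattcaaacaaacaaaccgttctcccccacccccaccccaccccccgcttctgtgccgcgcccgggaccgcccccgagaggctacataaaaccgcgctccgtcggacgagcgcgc
Atf3, chr1:191183334-191183583, minus strand: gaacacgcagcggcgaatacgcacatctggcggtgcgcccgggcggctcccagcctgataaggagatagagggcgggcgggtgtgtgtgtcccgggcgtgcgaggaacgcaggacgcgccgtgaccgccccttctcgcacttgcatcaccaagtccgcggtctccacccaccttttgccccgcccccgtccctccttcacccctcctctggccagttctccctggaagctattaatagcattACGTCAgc

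In *Fos* the CRE core lay 66 bases and the TATA element 33 bases before the start. *Dusp1* alone of the 7 held the full palindrome TGACGTCA, found in 1.546% of all promoters and overlapping the core by construction. The site TGACATCA was found in *Jun* alone of the 7 and in 2.928% of all promoters. The TATA element was found in *Fos* alone of the 7 and in 12.37% of all, and the E-box CACGTG, a site that MYC can bind, in *Dusp1*, in 1 of the 5 windows of *Egr2* and in 6.021% of all. A CArG box, the site of serum response factor, lay in 4 of the 5 windows of *Egr2* and in 1.467% of all promoters. Some of these *Egr2* windows overlap and hold the same CArG box. The AP-1 site TGACTCA (4.463% of all), the EGR site GCGTGGGCG (0.5358% of all) and the oestrogen response element (0.06392% of all) were in none of the 11 windows. A match is a match of letters only, and its absence concerns only these 250 bases.

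In the liver, *Egr1* and *Fos* were higher in the BHPF pool than in the control pool, by 3.92-fold and 2.46-fold, 6 members differed by less than 2-fold, and *Junb* and *Egr2* were not well above background in the BHPF pool. *Egr1* and *Fos* were the 2 members called at least 2-fold different, both higher. Of the 15530 genes evaluated in the liver, 4.63% differed by at least 2-fold either way and 3.1% were at least 2-fold higher. With *Junb* and *Egr2* at their upper bounds, the median difference of the 10 was 0.03 on the log2 scale and the median absolute difference 0.41, against 0.03 and 0.19 for all evaluated genes. Of the 8 members measured in both pools, *Fos*, *Fosb*, *Egr1* and *Ier2* lay above 0 and *Jun*, *Atf3*, *Dusp1* and *Myc* below.

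In the liver the level of *Egr1* was -1.27 in the control pool and 0.70 in the BHPF pool. It was 0.12 and 0.41 in the ovary and -0.60 and -0.59 in the uterus, control and BHPF in that order. The 2 liver pools were thus the lowest and the highest of the 6 arrays, and the ovary and uterus arrays lay between them. The liver difference was 1.97 on the log2 scale, and 82 of the evaluated genes (0.528%), *Egr1* included, were higher by as much or more.

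The level of *Fos* in the liver was -3.91 in the control pool and -2.61 in the BHPF pool, and it was -0.33 and -0.35 in the ovary, and -0.84 and -1.28 in the uterus. Its probe is printed at 10 spots, of which 7 remained for the control liver and 9 for the control ovary after spots flagged as outliers by the scanner software were left out. Spots of the control liver had levels from -3.98 to -3.79, and spots of the BHPF liver from -2.83 to -2.29. The spots of the 2 liver arrays did not overlap, and both liver arrays lay below every ovary and uterus array. The liver difference of 1.30 was reached or exceeded by 257 evaluated genes (1.655%), *Fos* included.

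**Figure D1:**
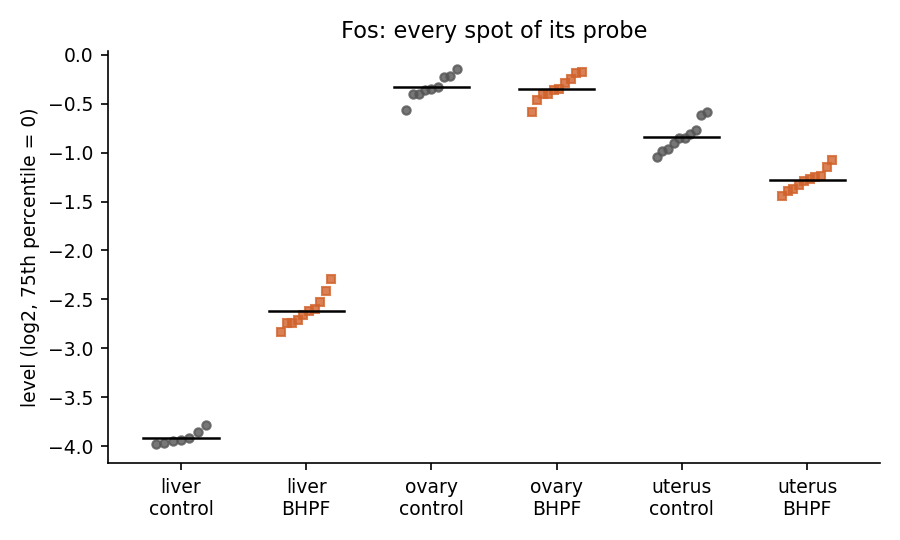
Level of *Fos* (log2, with the 75th percentile of the array at 0) at every spot of its probe on the 6 arrays, with grey circles for control, orange squares for BHPF and a line at the mean of each array. The liver spots run from -3.98 to -3.79 on the control array and from -2.83 to -2.29 on the BHPF array, and the ovary spots of both arrays lie at the same height.

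*Dusp1*, *Jun* and *Atf3* were lower on the BHPF liver array without reaching 2-fold. The level of *Dusp1* was 0.71 on the control and -0.05 on the BHPF liver array, a difference of -0.76, and 435 evaluated genes (2.801%) were lower by as much or more. *Jun* was at -0.26 and -0.80, a difference of -0.54, and *Atf3* at -0.83 and -1.34, a difference of -0.50. These 3 differences were each more than 3 times the SD from spot noise. *Fosb* (0.28), *Ier2* (0.10) and *Myc* (-0.11) differed by less than 2 times that SD. *Junb* and *Egr2* were not well above background on the BHPF liver array, so for these only upper bounds of -0.03 and 0.32 could be set.

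The scaling of the arrays moved these values. When the 50th percentile was subtracted in place of the 75th, the median difference of all evaluated genes in the liver became -0.29, and *Egr1* stood at 1.66, *Fos* at 0.99 and *Dusp1* at -1.07. *Fos* was then just short of 2-fold and *Dusp1* passed it, and since the choice of percentile shifts all genes of an array alike, their distance from the median of all genes (1.27 and -0.79) is the same under both by construction. With quantile normalization *Egr1* was at 1.70 and *Fos* at 0.98, so that *Egr1* alone was called, and with normexp background correction they were at 1.93 and 1.07. *Fosb* changed sign under the 50th percentile (-0.03) and under quantile normalization (-0.08), and *Ier2* under the 50th percentile (-0.22). The split of all called genes in the liver also depended on the scaling, with 482 higher and 237 lower at the 75th percentile, 248 and 535 at the 50th, and 220 and 341 with quantile normalization.

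**Figure D2:**
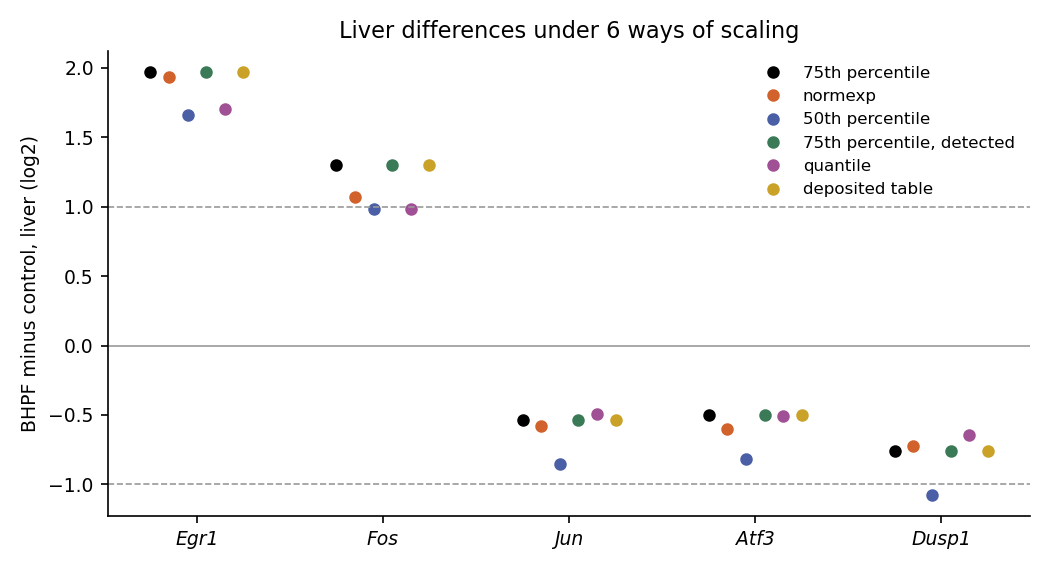
Liver difference, BHPF minus control (log2), of 5 members under 6 ways of scaling the arrays, 1 colour for each, with dashed lines at 2-fold. *Egr1* runs from 1.66 to 1.97 and *Fos* from 0.98 to 1.30, and *Jun*, *Atf3* and *Dusp1* lie below 0 in all 6.

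Markers of leukocytes also differed between the liver arrays. The 11 neutrophil genes on the array, of which *Csf3r*, *Lcn2* and *S100a9* were the brightest, had a summed level of 90.8 on the control and 39.8 on the BHPF liver array, and 8 of the 11 were at least 2-fold lower with BHPF. The 9 macrophage genes had 80.5 and 64.2, with 2 of 9 at least 2-fold lower. The 12 hepatocyte genes had 434 and 409, with none at least 2-fold different. In such bulk samples fewer cells of a type and less RNA per cell cannot be told apart, and the part of these cells in the liver differences of the members was not tested.

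In the ovary no member differed by 2-fold, and 1.11% of the 16863 genes evaluated did. The differences of the 10 members ran from -0.37 for *Atf3* to 0.29 for *Egr1*, with a median of 0.08 against 0.02 for all genes and a median absolute value of 0.15 against 0.13. *Atf3* was at -1.89 on the control and -2.27 on the BHPF ovary array, and was the only member whose difference exceeded 2 times its SD from spot noise. *Fos* (-0.01) and *Egr2* (-0.01) were at nearly the same level on both ovary arrays. The neutrophil genes were lower in the ovary too, with a summed level of 15.2 on the control and 12.3 on the BHPF array and 5 of the 9 evaluated at least 2-fold lower. The macrophage genes had 17.9 and 10.9, with 2 of 9 at least 2-fold lower, and the adipocyte genes 3.16 and 3.93, with 2 of the 6 evaluated at least 2-fold higher. The part of these cells in the *Atf3* difference was not tested.

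In the uterus no member differed by 2-fold either, and 3.07% of the 16162 genes evaluated did. *Egr2* was at -1.86 on the control and -1.14 on the BHPF uterus array, a difference of 0.72 or 1.64-fold, and 533 genes (3.298%) were higher by as much or more. *Fos* was at -0.84 and -1.28, a difference of -0.44 in the opposite direction, and 720 genes (4.455%) were lower by as much or more. The *Fos* spots ran from -1.04 to -0.59 on the control and from -1.45 to -1.08 on the BHPF uterus array, so they did not overlap. *Myc* differed by 0.32, from 1.14 to 1.46, and *Jun* by 0.28, from 1.51 to 1.79. *Egr1* (0.01), *Ier2* (0.00) and *Atf3* (0.01) were at the same level on both arrays. The median of the members was 0.00 and of all genes 0.02, and the median absolute values were 0.13 and 0.15. With the uterus arrays exchanged, *Egr2* stood at -0.72 and *Fos* at 0.44.

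The hepatocyte gene signal on the array labelled BHPF uterus, if it came from liver RNA, would bear on the members to unequal extents. Whether it came from liver RNA was not tested. The share of liver RNA was estimated from the 12 hepatocyte genes as the excess over the control uterus divided by the control liver level. It had a median of 5.55% and ran from 0.576% to 15.6% between genes. Liver RNA at the median share would account for 20.2% of the level of *Dusp1* on that array, 8.69% of *Ier2*, 5.34% of *Atf3*, 0.895% of *Fos* and 0.353% of *Egr2*. The 5 evaluated adipocyte genes were also different there, with a summed level over the list of 3.59 on the control and 1.07 on the BHPF uterus array and 3 of 5 at least 2-fold lower. The neutrophil genes had 39.6 and 29.5, with 4 of 10 at least 2-fold lower, and the mast cell genes 0.979 and 1.90, with 2 of 4 at least 2-fold higher. The part of the adipocytes, neutrophils and mast cells was not tested.

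**Figure D3:**
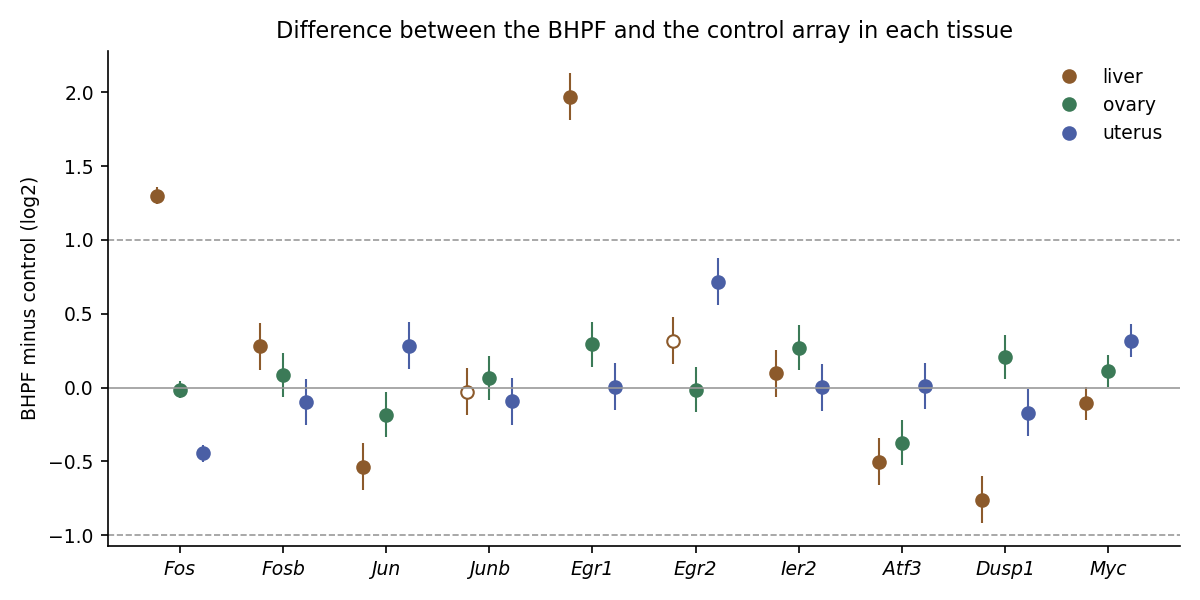
Difference between the BHPF and the control array (log2) of each member in the liver (brown), the ovary (green) and the uterus (blue), with bars of 1 SD from spot noise, dashed lines at 2-fold and open circles for bounds. *Egr1* (1.97) and *Fos* (1.30) in the liver are the points beyond 2-fold, and *Egr2* (0.72) is the highest in the uterus.

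Across the 3 tissues no common effect of BHPF on a member passed the test. A model with terms for tissue and treatment was fitted to all 6 arrays with limma, with 2 residual degrees of freedom, in which the spread is the disagreement of the tissues about the treatment effect, and the tissues may have come from the same animals. Of the 17566 genes fitted, 0% passed an adjusted p of 0.05 for treatment, and 866 (4.93%) had an unadjusted p under 0.05. None of the 10 members did, and their adjusted p in limma ran from 0.81 to 0.88. The effect of treatment was 0.76 ± 0.45 (SE) for *Egr1*, above 0 in 3 of 3 tissues but by only 0.01 in the uterus, and 0.28 ± 0.39 for *Fos*, higher in 1 of 3. On data simulated with the same effect in all 3 tissues, the test recovered 86 of 100 genes with a log2 effect of 2 and 40 of 100 with an effect of 1. The simulated noise was independent between arrays, with the SD fitted for each gene. The real pools may depart from this, so the counts do not give the recovery in them. An effect confined to 1 tissue was not simulated, so these counts do not apply to such a difference.

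**Figure D4:**
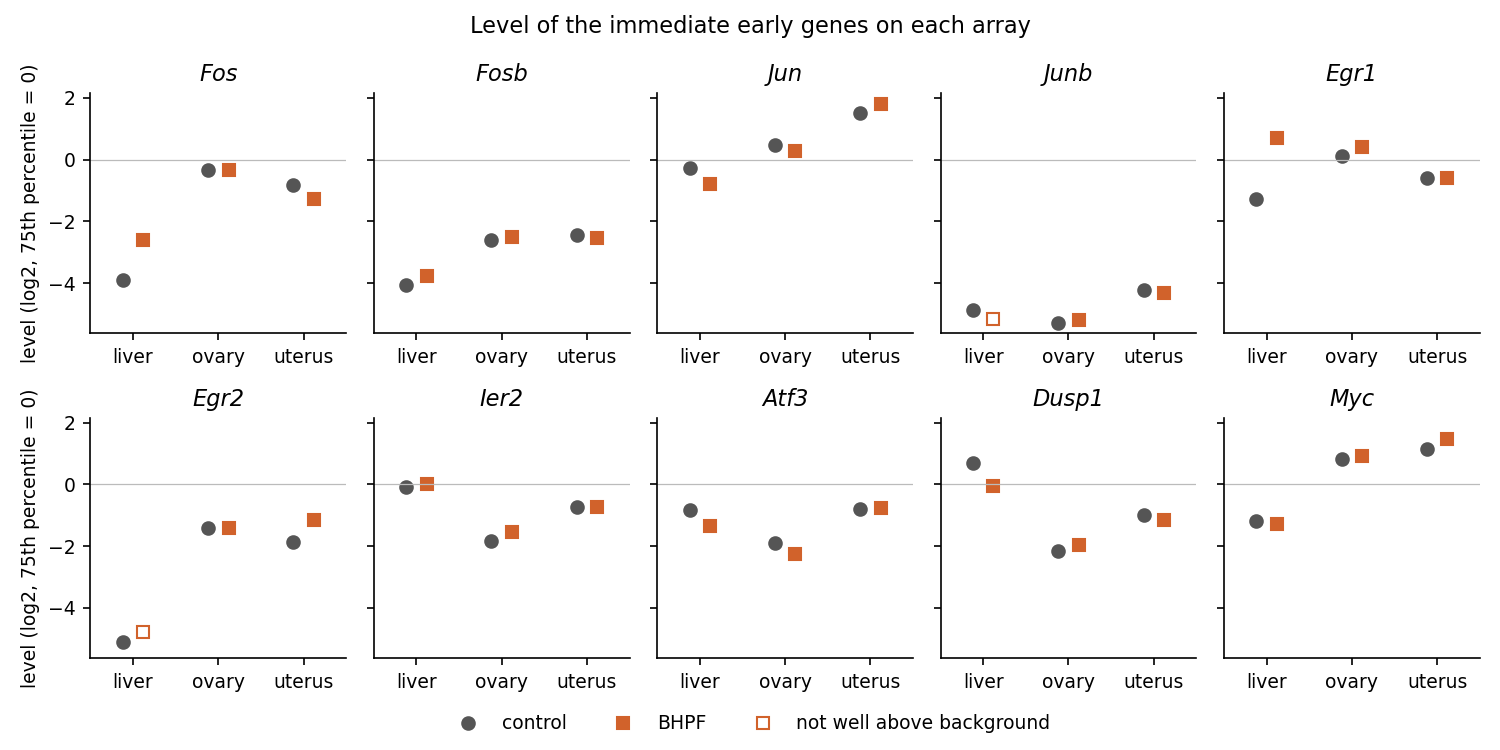
Level of each member (log2, with the 75th percentile of the array at 0) on the 6 arrays, with grey circles for control and orange squares for BHPF; open symbols were not well above background. *Fos*, *Fosb*, *Egr2* and *Myc* lie lower in both liver pools than in the other tissues, *Dusp1* and *Ier2* lie higher there, and the 2 liver pools of *Egr1* enclose the other 4 arrays.

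Differences of the members between tissues were larger than those between treatments, with a median absolute log2 difference of 1.503 between ovary and liver, 1.41 between uterus and liver and 0.90 between uterus and ovary against 0.19 for treatment (0.92, 0.83, 0.46 and 0.12 for all genes). In the same model 8 of the 10 members passed an adjusted p of 0.05 between ovary and liver, where 67.5% of all genes did, 8 between uterus and liver, where 62.3% did, and 4 between uterus and ovary, where 34.7% did. The levels of *Fos*, *Dusp1*, *Myc*, *Jun*, *Egr1*, *Ier2*, *Fosb* and *Atf3* spanned 3.58, 2.86, 2.76, 2.59, 1.97, 1.82, 1.61 and 1.49 log2 units over the 6 arrays, and the median span of the 13718 genes well above background on all arrays was 1.22. *Egr2* (3.97) and *Junb* (1.04) are not among those genes. Leaving out 1 array at a time gave 5 to 8 called members for the first of these contrasts, 5 to 8 for the next and 0 to 6 for the last. The lowest counts were 5 without the control ovary array, 5 without either uterus array, and 0 without the control ovary, the BHPF ovary or the BHPF uterus array.

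The AP-1 genes *Fos*, *Fosb* and *Jun* were lower in the liver than in both other tissues. *Fos* was higher than in the liver by 2.93 ± 0.48 (SE) in the ovary (adjusted p = 0.0089, limma) and by 2.21 ± 0.48 in the uterus (adjusted p = 0.021), but the former call was lost without the control ovary array (adjusted p = 0.063) and the latter without the control uterus array (adjusted p = 0.11). *Fosb* was at -4.07 and -3.79 in the liver, -2.60 and -2.52 in the ovary and -2.46 and -2.55 in the uterus, and was higher than in the liver by 1.37 ± 0.14 and 1.42 ± 0.14 (adjusted p = 0.0028 in limma for both). *Jun* had its highest levels in the uterus (1.51 and 1.79), followed by the ovary (0.46 and 0.28) and the liver (-0.26 and -0.80). All 3 of its steps passed the test, and its arrays of different tissues did not overlap. The step from liver to ovary of 0.90 ± 0.23 (SE; adjusted p = 0.032, limma) was lost with the 50th percentile (0.58, adjusted p = 0.13) and without either ovary array or the BHPF liver array (adjusted p = 0.11 to 0.15). *Junb* was at -4.88 and -5.16 in the liver, -5.28 and -5.21 in the ovary and -4.24 and -4.33 in the uterus. It was higher in the uterus than in the ovary by 0.96 ± 0.14 (adjusted p = 0.014, limma; 0.067 with quantile normalization), with probe intensities of only 91.8 to 283, and the order of the liver and the ovary was not resolved.

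Of the early growth response genes, *Egr2* separated the liver from the other tissues and *Egr1* did not. *Egr2* was at -5.12 and -4.80 in the liver, at the edge of detection, and at -1.41 and -1.43 in the ovary and -1.86 and -1.14 in the uterus. As only 1 of its 2 liver arrays was well above background, its difference of 3.54 between ovary and liver (adjusted p = 0.00087, limma) is a lower bound, and the ovary and uterus arrays overlapped. *Egr1* differed by 0.55 ± 0.55 between ovary and liver and by -0.31 ± 0.55 between uterus and liver, with adjusted p of 0.42 and 0.66 in limma, as its liver pools lay on both sides of the others. Without the BHPF liver array the former became 1.46 (adjusted p = 0.011), and without the control liver array the latter became -1.22 (adjusted p = 0.017). Between uterus and ovary *Egr1* differed by -0.86 ± 0.55 (adjusted p = 0.29, limma), and its arrays of these tissues did not overlap. The SE of this difference includes the disagreement of the liver arrays. *Myc* was at -1.19 and -1.30 in the liver, 0.82 and 0.93 in the ovary and 1.14 and 1.46 in the uterus. It was higher than in the liver by 2.12 ± 0.15 in the ovary and 2.55 ± 0.15 in the uterus (adjusted p = 0.0012 and 0.00093, limma), and the step of 0.43 ± 0.15 from ovary to uterus missed the threshold (adjusted p = 0.10).

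The remaining 3 members had the opposite order or another one. *Dusp1* was highest in the liver (0.71 and -0.05), lower in the uterus (-0.99 and -1.16) and lowest in the ovary (-2.16 and -1.95). Its level was lower in the ovary than in the liver by 2.38 ± 0.27 (adjusted p = 0.0035, limma), and the step between uterus and ovary missed the threshold (adjusted p = 0.062; 0.026 with a trend in the moderation of the variances). *Ier2* was at -0.10 and -0.00 in the liver, -0.75 and -0.75 in the uterus and -1.82 and -1.56 in the ovary, and all 3 steps passed. The step from liver to uterus was lost with the percentile taken over detected probes (-0.33 in place of -0.70, adjusted p = 0.084 in limma). *Atf3* was at -0.83 and -1.34 in the liver, -1.89 and -2.27 in the ovary and -0.79 and -0.78 in the uterus, so that the liver and the uterus were not separated (adjusted p = 0.20, limma; 0.034 with the percentile over detected probes) and the ovary was lower than the uterus by 1.30 ± 0.17 (adjusted p = 0.012). The calls of *Ier2* and *Atf3* between uterus and ovary are also among those lost, as given above, without either ovary array or the BHPF uterus array. With 1 array left out, this step ran from 0.83 to 1.05 for *Ier2* and from 1.07 to 1.52 for *Atf3*. The part of cell composition in the tissue differences of these 3 members was not tested.

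The genes most like a member were sought by the root mean square difference of the 6 levels, each centred on its own mean, over 13718 genes. Among the 5 nearest to *Myc* were *Pcdhb18*, *Rab11fip2*, *Pmm1* and *Zfp985* at 0.08 to 0.11. The nearest to *Jun* was *Csgalnact1* at 0.11, followed by *Axin2*, *Mustn1*, *Bmx* and *Rev3l* at up to 0.14. For *Fos* the nearest were *Chrdl1*, *Vcan*, *Prl2c1*, *Trerf1* and *Gm8096* at 0.26 to 0.29. For *Egr1* they were *1810062G17Rik*, *Slc5a10*, *Ssxb10*, *C130026I21Rik* and *Pgam2* at 0.26 to 0.31. None of the genes named here is an immediate early gene of the lists used here, and the likeness over 6 points from 3 tissues is a description.

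The wider immediate early response was represented by 48 further genes, of which 42 were evaluated in the liver, 44 in the ovary and 43 in the uterus. In the liver 2 of 42 were at least 2-fold higher and none lower, a share near the 4.63% of all genes that differed either way. *Maff*, which encodes a small Maf protein, went from -1.35 to -0.27, and *Fosl1*, another FOS family gene, was not well above background on the control array and was higher by at least 1.03. Of the 42, 28 lay below 0, with a median of -0.08 against 0.03 for all genes. The lowest were *Socs3*, an inhibitor of cytokine signalling (-0.85), *Ccn2*, a matricellular growth factor (-0.58), and *Cebpd* (-0.50). In the ovary and in the uterus none of the further genes differed by 2-fold, with medians of 0.03 and 0.01. The largest differences there were *Dusp5* in the ovary (0.48), a MAP kinase phosphatase like *Dusp1*, and *Ccn1* in the uterus, a growth factor-inducible matricellular gene, which went from -1.21 to -1.91. In the model over the 3 tissues none of the 45 fitted passed for treatment.

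**Figure D5:**
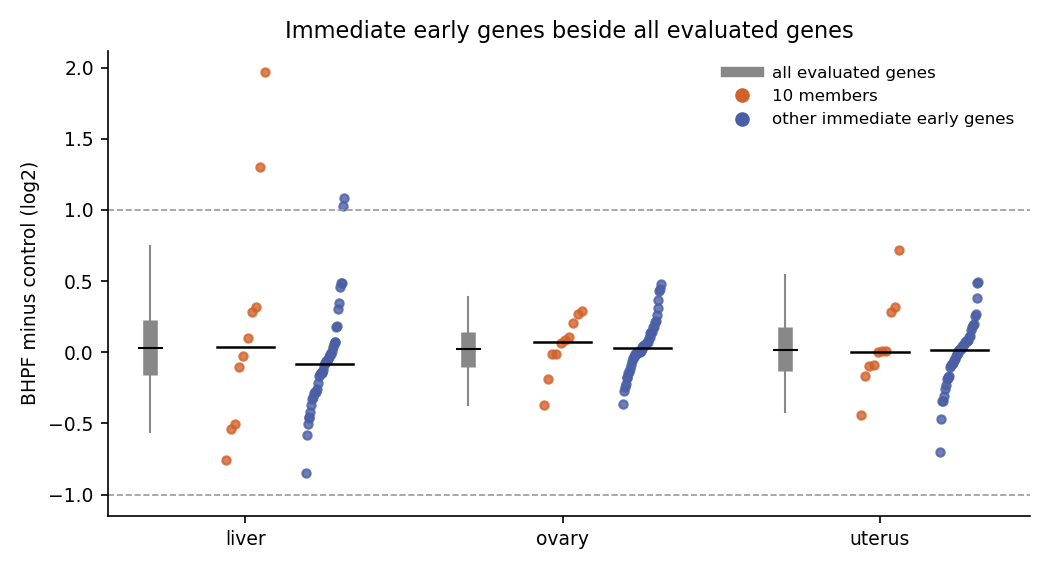
Difference between the BHPF and the control array (log2) in each tissue, for all evaluated genes (box from the 25th to the 75th percentile, line from the 5th to the 95th, tick at the median), the 10 members (orange) and the further immediate early genes (blue), with black lines at the list medians and dashed lines at 2-fold. In the liver *Egr1* and *Fos* stand beyond 2-fold together with 2 further genes, while the list medians (0.03 and -0.08) lie near that of all genes (0.03).

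Among the genes that act before the members, the kinases and the factors SRF, ELK and CREB that drive them, 25 were evaluated in each tissue. In the liver 1 of 25 passed 2-fold, *Mrtfb*, a coactivator of SRF, which went from -3.52 to -1.40. At least 1 of its probes was not well above background on 1 of the arrays, so the difference used, 1.35, is a bound. The median of the list was 0.03 in the liver, 0.07 in the ovary and 0.05 in the uterus. *Srf* itself was higher by 0.36 in the ovary, from -0.80 to -0.44, and *Mapkapk2*, a kinase of the stress pathway, was lower by 0.37 in the liver, from 0.84 to 0.47. None passed in the ovary or the uterus, and none passed for treatment in limma.

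Of the 10 evaluated partners of the AP-1 proteins, *Batf* alone passed 2-fold in the liver. It encodes a leukocyte factor that pairs with JUN, and it went from -0.43 to -1.77 in the liver and from -1.51 to -2.19 in the ovary. Its relative *Batf3* was lower by 0.86 in the liver. These are genes of leukocytes, and the neutrophil sums given above were lower on the same arrays, whose part in these differences was not tested. Of the AP-1 and EGR targets, 9 were evaluated in the liver, 10 in the ovary and 11 in the uterus. *Mmp9*, a matrix metalloproteinase that neutrophils carry, went from -3.32 to not well above background in the liver, lower by at least 1.59 (log2). *Spp1*, which encodes osteopontin, went from -1.40 to -0.04 in the uterus and was the only other target past 2-fold. Its level on the control liver array was 2.29. Whether the source of the hepatocyte gene signal on the BHPF uterus array had a part in this *Spp1* difference was not tested. *Plaur*, the urokinase receptor, was lower by 0.80 in the liver and by 0.88 in the uterus. *Nab2*, an EGR1 target that represses EGR1 in turn, was at -1.83 and -1.76 in the liver, a difference of 0.08 beside the 1.97 of *Egr1*.

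The partners and targets of MYC differed little. None of the 11 partners evaluated in the liver, the 12 in the ovary or the 12 in the uterus passed 2-fold, and the largest difference was that of *Mycn* in the liver (-0.76). None of the 21 targets passed in any tissue. In the liver 15 of the 21 lay above 0, with a median of 0.15 against 0.03 for all genes and the highest values for *Cad*, an enzyme of pyrimidine synthesis (0.68), and *Srm*, an enzyme of polyamine synthesis (0.41). In the uterus 13 of the 21 lay below 0, with a median of -0.11 against 0.02, and *Nme1* and *Nolc1* were the lowest (-0.38 and -0.35), while *Myc* itself differed by 0.32. None of the partners or targets passed for treatment in the model over the 3 tissues.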

How the data were processed

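RNA of each pool of 3 mice was labelled and hybridized by the authors to single-colour Agilent arrays. Per the deposited scanner files, the intensity of a spot had been corrected for background and spatial trend by Agilent Feature Extraction (11.5.1.1 in the file headers, 9.1 in the submitters' processing notes) without normalization between arrays. A table of log2 values made by the authors served as an alternative. No column of another sample was present (0). Control and outlier spots were left out, spots of a probe were averaged as log2, and the 75th percentile over 55681 probes was subtracted within each array. Symbols came from the probe accessions through a RefSeq table of GRCm38.p6 (26762 of 55681 probes matched, 20284 genes). The array design names mm9, so no gene coordinates were taken from that table. Probes of a gene well above background on at least 1 array were averaged. A gene was evaluated in a tissue if well above background on 1 of its 2 arrays, and where it was not on the other, the lowest intensity well above background there (70.0 to 135) or its own, if higher, gave a bound. Between 61.3% and 74.5% of probes were well above background, and no probe was saturated. The number of arrays limits the precision. The 2-fold threshold follows the study. The additive model was fitted with limma 3.58.1 in R 4.3.3 (lmFit and eBayes, Benjamini-Hochberg adjustment over 17566 genes), and was tested on simulated data, on which it made 8 false calls. The members and lists were chosen with earlier results of these data known. Besides the members, the genes named are at most 5 of each list per tissue with the largest difference, those past 2-fold, at most 3 brightest of each marker list, and the 5 most like *Fos*, *Egr1*, *Jun* and *Myc*. A gene that this rule selects is not reported here. Summed levels not given above were, on the control and BHPF arrays, 97.2 and 102 for smooth muscle in the uterus, 39.4 and 41.3 for granulosa in the ovary, 45.3 and 41.3 for erythroid in the liver and 1.35 and 1.34 for lymphocytes in the liver. Alternatives covered background correction (normexp, offset 50, on median signals because the files hold no mean signal), scaling, the deposited table, filters on dim genes, the probe used, the fold threshold, exchanged uterus arrays and each array left out. The last, for the tissue contrasts, with probes in place of genes and the table with its uterus columns exchanged, was chosen after seeing the data.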

Additional observations from a re-analysis of the deposited data

Results flagged for a closer look

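*Fos* moved in opposite directions in the liver and the uterus. Its log2 difference, BHPF minus control, was 1.30 in the liver and -0.44 in the uterus, each more than 2 times the SD that spot noise gives it, with 1 array per group. The difference between the tissues was not tested, and with the uterus arrays exchanged both values would be positive.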

How the results depend on the processing

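Of the counts of called members, 103 alternatives lay within 1.5 times the reported count. Among these 103, and among the unchanged values of single genes given below, some could not differ. Each member has 1 probe, so the choice of probe left its differences as they were. Exchanging the uterus arrays likewise could not change the differences between BHPF and control in the liver and the ovary. The liver count was 1 with quantile normalization, and the uterus count was 1 (*Egr2*) at a threshold of 1.5-fold, where the liver count was 3. With 1 array left out, the counts of members called were 5 to 8 between ovary and liver, 5 to 8 between uterus and liver and 0 to 6 between uterus and ovary. Each lone array was then assumed to vary like the others. Of the differences tested with limma, those that changed sign had not passed the test. For treatment, the 50th percentile gave -0.047 for *Fosb*, -0.014 for *Ier2* and -0.030 for *Myc*, quantile normalization -0.059 for *Fosb*, normexp 0.20 for *Junb*, the deposited table as headed -0.14 for *Egr2* and -0.10 for *Myc*, and the exchanged uterus arrays also -0.14 and -0.10. With each tissue left out in turn, treatment effects ran from -0.46 to 0.019 for *Dusp1*, from -0.23 to 0.64 for *Fos*, from -0.00530 to 0.18 for *Fosb*, from -0.36 to 0.050 for *Jun*. Between ovary and liver *Junb* was at 0.15, and between uterus and liver *Egr1* at 0.057, with the percentile taken over detected probes. *Atf3* was at -0.15 between uterus and liver at the 50th percentile. Between uterus and ovary *Fosb* was at -0.0816 at the 50th percentile and -0.086 with quantile normalization, and *Egr2* at 0.045 with normexp. With each array left out, *Egr1* ran from -0.36 to 1.46 between ovary and liver, *Egr1* ran from -1.22 to 0.60 between uterus and liver, *Egr2* ran from -0.36 to 0.20 between uterus and ovary, *Fosb* ran from -0.084 to 0.20 between uterus and ovary. Of the values of single genes, 1001 were unchanged in direction and side of the threshold or moved by less than the spot noise, 44 moved by more, 11 passed the threshold only under the alternative and 35 only in the reported setting. The cause of these changes was not tested. The tissue term of the model already pairs the arrays of a tissue, and a pairing by replicate number could not be made because each group has 1 array and the labels carry no shared numbers. Probes near background (*Junb*, and *Egr2* in the liver) limit what the arrays resolve, and the spread between animals was not measured.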
